A study of Homo sapiens with 6 samples.

Results

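The transcripts of 10 cell surface proteins of monocytes and other myeloid cells were examined, namely the growth factor receptors CSF1R, CSF2RA and CSF3R, the integrin chains ITGAM and ITGAX, the Fc receptors FCGR1A and FCGR2A, and CD14, CD33 and CD86. Members were the rows of the count tables that carry one of these symbols, and all 10 were found among 56305 genes and passed edgeR's filter on low counts, as did 20399 genes in all. The libraries were made from MOLM13, a human acute myeloid leukemia line with an internal tandem duplication of FLT3. There were 3 libraries from cells given DMSO for 24 h and 3 from cells given 1 μM ZW27941 for 24 h. ZW27941 is a chimeric molecule that brings METTL3, the catalytic subunit of the m6A methyltransferase of mRNA, to the VHL ubiquitin ligase so that the protein is degraded. The comparison therefore asks how these receptor transcripts stood in cells given a METTL3 degrader. All libraries are of 1 cell line, and the labels do not say whether the 3 of a group were separate cultures, so the p-values measure the spread between these libraries only, which may be technical.

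The receptors fall into a few classes with different tasks. CSF1R is the tyrosine kinase receptor of macrophage colony-stimulating factor and of interleukin 34, CSF3R is the receptor of granulocyte colony-stimulating factor, and CSF2RA is the ligand-binding chain of the receptor for granulocyte-macrophage colony-stimulating factor, which signals through the shared chain CSF2RB. ITGAM (CD11b) and ITGAX (CD11c) each pair with ITGB2 to form an adhesion and complement receptor. FCGR1A (CD64) and FCGR2A (CD32a) bind IgG and drive phagocytosis. CD14 hands lipopolysaccharide to TLR4 and LY96, CD33 is an inhibitory sialic acid receptor used as a target in leukemia, and CD86 is a costimulatory ligand of CD28 and CTLA4. Most of these genes are turned on as myeloid cells mature, under transcription factors such as PU.1 (the product of SPI1) and RUNX1.

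Each library held 143454176 to 178744976 counts on genes. HTSeq's tallies of reads given to no gene took 37.4% to 39.8% of the reads tallied and were left out. Reads aligned to several places made up 5.25% of the reads tallied in ZW27941 replicate 3, against 3.63% to 4.07% in the other libraries. For the METTL3 transcript, the log2 fold change of ZW27941 against DMSO was 0.013 with a standard error (SE) of 0.028, and as ZW27941 acts on the protein this does not check the labels. Markers of myeloid cells were abundant, since SPI1, CEBPA, LYZ, MPO and AIF1 summed to 1982 to 2040 CPM (counts scaled to library size with TMM factors) in DMSO and 2200 to 2283 CPM on ZW27941. Of these 5, 4 were called higher (adjusted p under 0.05 by edgeR), beside 16.3% of all genes tested, a share not matched for expression level. LYZ rose by 20.4%, and CEBPA, MPO and SPI1 by 5.67%, 6.69% and 7.84%. AIF1 went the other way, by −2.98%, and was not called (adjusted p = 0.238 by edgeR). Markers of T cells summed to at most 0.457 CPM and those of erythroid cells to at most 0.0199 CPM in any library. The 5 markers of NK cells summed to 182 to 186 CPM in DMSO and 197 to 201 CPM on ZW27941, almost all of it from NCAM1 and NKG7, while KLRD1 and KLRF1 were near 0. The 5 markers of B cells summed to 27.4 to 28.9 CPM and 29.5 to 30.4 CPM, almost all of it from PAX5, with MS4A1 near 0. Megakaryocyte markers summed to 1.65 to 2.28 CPM, with PF4 and PPBP at 0 counts in every library. The part of these markers in the results was not tested.

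The sequences just before the transcription starts of the members that moved most are shown because PU.1 and RUNX1 act on promoters of this class. They are from RefSeq (GRCh38.p14), run 5′ to 3′ on the gene's strand and end at the base before the annotated start. Capitals mark the letters GAGGAA, the core of a PU.1 site, or the same letters on the other strand (TTCCTC). CSF1R has a downstream start, used in monocytes and macrophages, and an upstream start known from the placenta.
CSF1R downstream start, chr5:150086555-150086804, minus strand: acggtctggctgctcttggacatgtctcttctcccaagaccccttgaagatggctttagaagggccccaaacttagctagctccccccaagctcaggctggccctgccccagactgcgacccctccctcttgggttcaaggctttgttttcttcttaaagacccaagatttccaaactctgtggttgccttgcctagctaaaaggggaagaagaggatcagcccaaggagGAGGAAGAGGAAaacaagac
CSF1R upstream start, chr5:150113366-150113615, minus strand: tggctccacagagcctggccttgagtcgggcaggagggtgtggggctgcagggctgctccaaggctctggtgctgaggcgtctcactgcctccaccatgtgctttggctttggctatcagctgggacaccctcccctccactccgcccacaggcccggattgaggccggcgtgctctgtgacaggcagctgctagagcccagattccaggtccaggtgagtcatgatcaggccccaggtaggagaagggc
CD86 first start, chr3:122055112-122055361, plus strand: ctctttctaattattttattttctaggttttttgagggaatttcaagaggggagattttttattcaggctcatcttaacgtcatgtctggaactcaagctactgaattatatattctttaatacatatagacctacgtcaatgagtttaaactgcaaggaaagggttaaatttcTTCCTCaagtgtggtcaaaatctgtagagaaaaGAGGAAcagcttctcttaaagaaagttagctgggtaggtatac
CD14, chr5:140633176-140633425, minus strand: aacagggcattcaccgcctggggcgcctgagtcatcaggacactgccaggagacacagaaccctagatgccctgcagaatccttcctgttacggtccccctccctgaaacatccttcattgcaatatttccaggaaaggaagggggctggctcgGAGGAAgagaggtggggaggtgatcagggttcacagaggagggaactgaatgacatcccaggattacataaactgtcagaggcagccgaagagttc

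Promoter windows were found for 9 of the 10 members, 12 windows in all with the identical copy of CSF2RA on the Y chromosome left out, and ITGAX had none in the table. Each window spans 300 bases, 250 before and 50 after the start. GAGGAA on either strand was present in 9 of the 12 windows, at least 1 window for each of the 9 members, against 27.9% of 34943 windows of all genes. TGTGGT, the letters of a RUNX site, on either strand was present in 5 of the 12 windows, against 13.1% of all windows, and no match overlapped a GAGGAA match in the sequences printed. The downstream start of CSF1R had 2 adjacent GAGGAA matches before it, beginning 20 and 14 bases upstream, and a TGTGGT match beginning 71 bases upstream. Its upstream start had neither. Counts per gene do not separate the starts of a gene. CD86 had GAGGAA matches 76 and 43 bases before its first start and CD14 had 1 match 96 bases before its start. These are matches of letters, not measured sites. Members with a GAGGAA match included receptors called higher, CD14, which was called lower, and receptors not called, such as CD33. The SPI1 transcript went from 172 ± 1.85 to 185 ± 2.80 CPM (SD, n = 3 each), a log2 fold change of 0.11 (adjusted p = 0.00140 by edgeR). Any relation of the matches or of SPI1 to the fold changes of the receptors was not tested.

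Across the 10 receptors, 4 were called higher on ZW27941 (CSF1R, CD86, ITGAM and CSF3R) and 1 lower (CD14) at an adjusted p under 0.05. Here and below, p-values are from the quasi-likelihood test of edgeR, adjusted by Benjamini and Hochberg over all genes tested. Among all genes tested, 30.1% were called, 16.3% higher and 13.8% lower. With a fold change of at least 1.2 required as well, CSF1R was the 1 receptor called higher and CD14 the 1 called lower, beside 8.60% of all genes called and 4.53% called higher. The median log2 fold change of the 10 was 0.039, against −0.0019 over all genes tested. In 5 receptors every ZW27941 library lay above every DMSO library and in 1 every one lay below, where this held for 21.7% and 19.9% of all genes tested, or 41.6% in either direction. The other 5 receptors did not pass. In bulk RNA, fewer cells that carry a transcript and less of it per cell cannot be told apart.

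**Figure D1:**
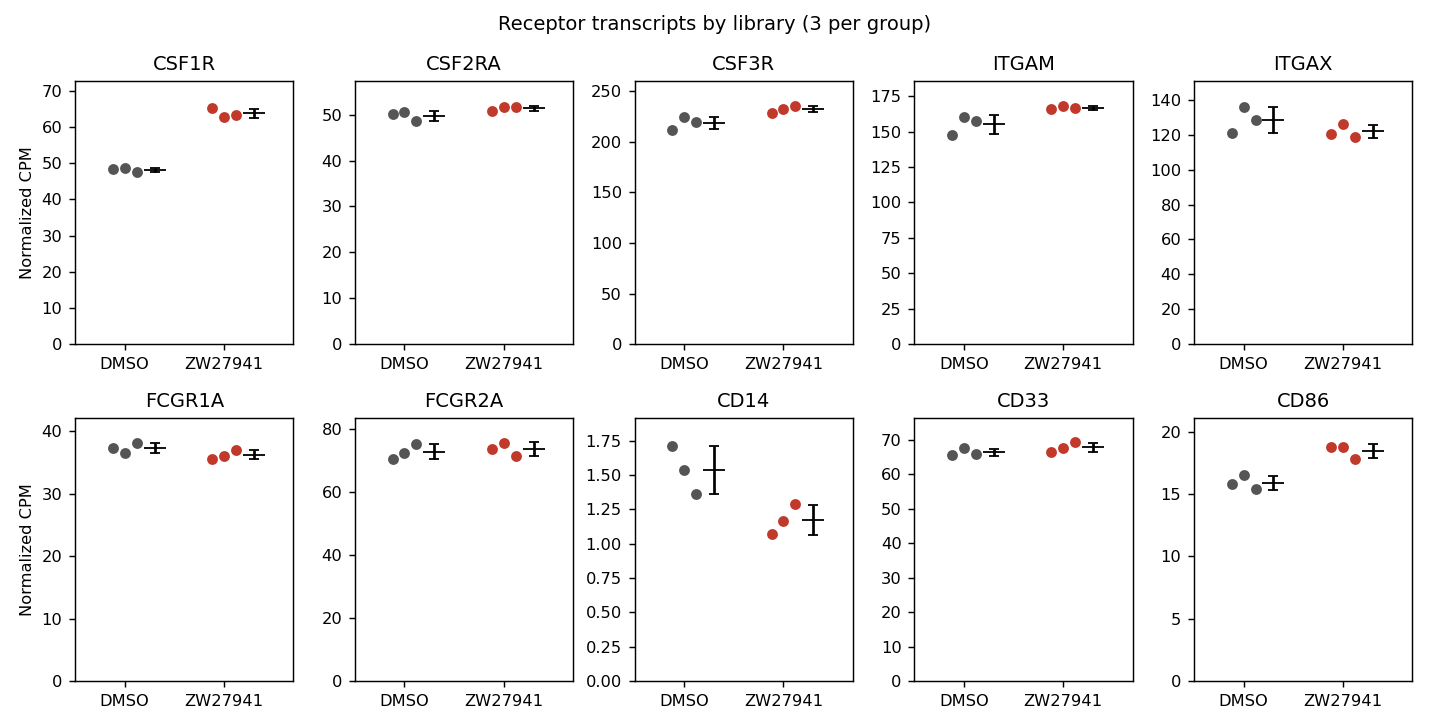
Normalized counts in CPM (vertical axes, each from 0) of the 10 receptor transcripts in the 3 DMSO (grey) and 3 ZW27941 (red) libraries. Each point is a library and the black bar beside it is the mean with its SD. CSF1R is the receptor with the widest gap, with 47.7 to 48.7 CPM in DMSO and 62.7 to 65.2 CPM on ZW27941.

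Among the growth factor receptors, the CSF1R transcript rose the most. It was at 48.3, 48.7 and 47.7 CPM in the DMSO libraries and at 65.2, 62.7 and 63.3 CPM in the ZW27941 libraries. The groups lay far apart against SDs of 0.516 CPM in DMSO and 1.30 CPM on ZW27941 (n = 3 each). The log2 fold change was 0.40 (SE 0.027, adjusted p = 4.69e-10 by edgeR), a rise of 32.2% with a 95% interval of 27.2% to 37.5%. By p-value CSF1R ranked 31st of the 20399 genes, and 5.31% of them had a log2 fold change at least as high. CSF1R lies on chromosome 5 (GRCh38, 150053291 to 150113372, minus strand), where GENCODE v29 places no exon of another gene over its exons. The genes closest to it in pattern over the 6 libraries, among 9985 genes whose log2 CPM averaged 3 or more, were TTC33 (r = 0.9994), NISCH (r = 0.9990) and SLC35B3 (r = 0.9989). With 2 groups of 3 such correlations are common, and 905 genes had an r over 0.95.

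CSF3R, the receptor for granulocyte colony-stimulating factor, was at 212, 224 and 219 CPM in DMSO and at 229, 233 and 235 CPM on ZW27941. Every ZW27941 library was above the highest DMSO library, and the gap was small beside the spread of 6.20 CPM (SD, n = 3) in DMSO. Its log2 fold change was 0.086 (SE 0.026, adjusted p = 0.0132 by edgeR), a rise of 6.16%. Without DMSO replicate 1 the value was 0.065 (adjusted p = 0.0927 by edgeR), without ZW27941 replicate 2 it was 0.084 (adjusted p = 0.0544), and with upper quartile normalization 0.063 (adjusted p = 0.0720), so the call did not hold in these. Over its alternatives the adjusted p of edgeR or DESeq2 ran from 0.00426 to 0.0927.

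CSF2RA was at 50.1, 50.6 and 48.5 CPM in DMSO and at 50.7, 51.7 and 51.7 CPM on ZW27941. The groups did not overlap but nearly touched. Its log2 fold change was 0.047 with a 95% interval of −0.010 to 0.10 and did not pass (adjusted p = 0.215 by edgeR). CSF2RA lies in a region that the X and Y chromosomes share, on X at 1268800 to 1310381, so reads could align to both copies. How the counting treated such reads is not given in the sources used here. Its signalling partner CSF2RB rose from 12.04 ± 0.214 to 13.6 ± 0.194 CPM (SD, n = 3 each), a log2 fold change of 0.18 (SE 0.040, adjusted p = 0.00163 by edgeR). IL3RA, the interleukin 3 binding chain that also pairs with CSF2RB, fell from 83.0 ± 3.37 to 70.2 ± 1.60 CPM (SD, n = 3 each), a log2 fold change of −0.24 (adjusted p = 2.36e-06 by edgeR). IL3RA also lies in a region shared by X and Y.

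Of the 9 receptor partners and ligands listed, 3 were tested, with CSF2RB higher, IL3RA lower and CSF1, the ligand of CSF1R, not called, beside 16.3% higher and 13.8% lower of all genes tested. CSF1 was at 0.631 ± 0.0371 CPM in DMSO and 0.710 ± 0.0628 CPM on ZW27941 (SD, n = 3 each). The ligands IL34, CSF2, CSF3, IL3 and IL5 and the receptor chain IL5RA had too few counts to be tested. The median log2 fold change of the 3 was 0.17.

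ITGAM and ITGAX, which share the partner ITGB2 and lie side by side on chromosome 16, stood on opposite sides of 0. ITGAM (31259967 to 31332892, plus strand) was at 147, 160.4 and 157 CPM in DMSO and at 166, 168 and 167 CPM on ZW27941. All 3 ZW27941 libraries were above the highest DMSO library, and DMSO replicate 1 was the lowest of all. Its log2 fold change was 0.10 (SE 0.028, adjusted p = 0.00721 by edgeR), a rise of 7.48%. Without DMSO replicate 1 this was 0.069 and no longer passed (adjusted p = 0.0687 by edgeR). Over the alternatives, its adjusted p from edgeR or DESeq2 was 4.75e-04 to 0.0687.

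ITGAX (31355134 to 31382997, plus strand) was at 121, 136 and 128 CPM in DMSO and at 121, 126 and 119 CPM on ZW27941. The groups overlapped, and DMSO replicate 1 was again the lowest of its group. The log2 fold change was −0.077 with a 95% interval of −0.15 to −0.0079, and it did not pass after adjustment (adjusted p = 0.0870 by edgeR). It passed without DMSO replicate 1 (−0.12, adjusted p = 0.0118 by edgeR), without ZW27941 replicate 2 (−0.10, adjusted p = 0.0473), with upper quartile normalization (−0.10, adjusted p = 0.0259) and with no filter on low counts (−0.072, adjusted p = 0.0438). The adjusted p over its alternatives ran from 0.0118 to 0.513 with edgeR or DESeq2.

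A ratio of raw counts within a library does not depend on how libraries are scaled to each other. The 8 such ratios computed were chosen after the values had been seen. The counts of ITGAM to those of ITGAX stood at 1.22, 1.18 and 1.22 in DMSO and at 1.37, 1.33 and 1.40 on ZW27941. The groups were apart, including DMSO replicate 1, although 3 against 3 libraries cannot give a 2-sided exact permutation p under 0.1 (p = 0.1, adjusted p = 0.114 over the 8 ratios). ITGAM to ITGB2 rose likewise from 0.197 ± 0.00683 to 0.222 ± 0.00322 (SD, n = 3 each, exact permutation p = 0.1, adjusted p = 0.114). The ratio of CSF1R to CSF3R was 0.228, 0.217 and 0.217 in DMSO and 0.285, 0.270 and 0.270 on ZW27941 (exact permutation p = 0.1, adjusted p = 0.114). CSF2RB to CSF2RA was at 0.242 ± 0.00211 and 0.266 ± 0.00663 (SD, n = 3 each, exact permutation p = 0.1, adjusted p = 0.114), also with no overlap.

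**Figure D2:**
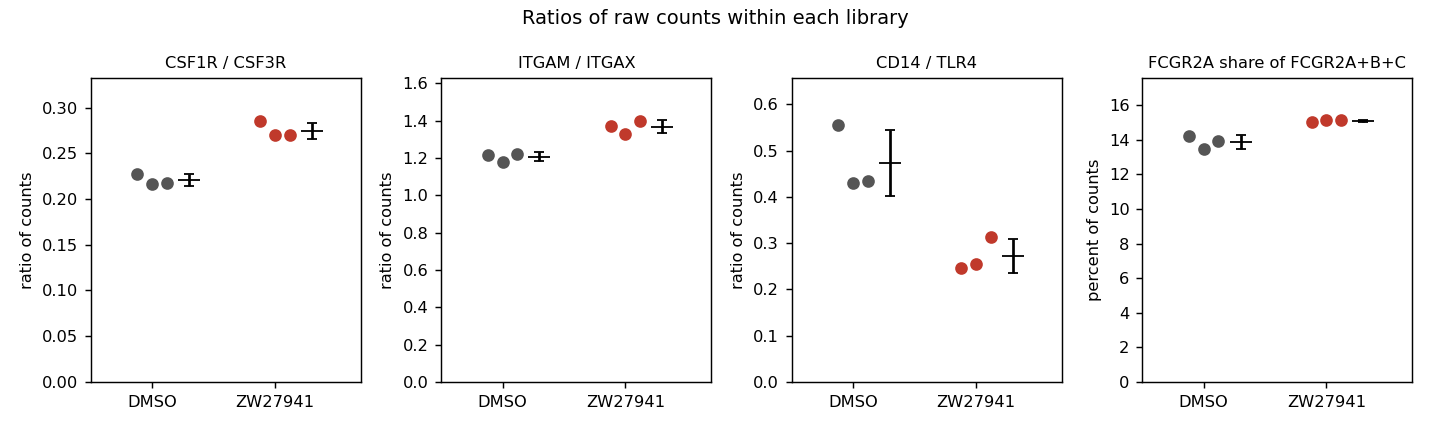
Ratios of raw counts within each library (vertical axes from 0) for CSF1R to CSF3R, ITGAM to ITGAX and CD14 to TLR4, and the share of FCGR2A in the counts of FCGR2A, FCGR2B and FCGR2C in percent. Points are libraries (DMSO grey, ZW27941 red) and black bars are means with SD. In all 4 panels the 3 ZW27941 libraries lie on one side of the 3 DMSO libraries, for example 1.33 to 1.40 against 1.18 to 1.22 for ITGAM to ITGAX. The ratios were chosen after the values had been seen, and the share of FCGR1A, not drawn, overlapped between the groups. Among single genes tested, 41.6% had no overlap either.

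Of 9 tested genes for β2 integrin subunits, their activators and their ligands, 3 were lower and 0 higher with edgeR, beside 13.8% and 16.3% of all genes tested. At an unadjusted p under 0.05, which at least 8064 of all 20399 genes met, there were 5 lower and 1, ICAM4, higher. DESeq2 called 4 lower and 0 higher, beside 2698 lower and 3033 higher of all genes. The median log2 fold change was −0.063. ICAM1, the ligand that leukocytes bind through these integrins, fell from 81.7 ± 0.698 to 70.5 ± 1.197 CPM (SD, n = 3 each), a log2 fold change of −0.21 (adjusted p = 1.77e-06 by edgeR). ICAM5 had a log2 fold change of −0.20. The common chain ITGB2 was at 786 ± 16.4 CPM in DMSO and 751 ± 5.997 CPM on ZW27941 (SD, n = 3 each), a log2 fold change of −0.066 that only just passed (adjusted p = 0.0477 by edgeR). The call of ITGB2 was lost when DMSO replicate 2, DMSO replicate 3, ZW27941 replicate 1 or ZW27941 replicate 2 was left out (adjusted p = 0.118, 0.248, 0.0585 and 0.164 by edgeR). Exons of ITGB2 also overlap those of the antisense gene ITGB2-AS1. ITGAD, the neighbouring chain most like ITGAX, had at most 5 counts in a library and was not tested.

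Of the Fc receptors, neither FCGR1A nor FCGR2A passed. FCGR1A, the high-affinity IgG receptor, was at 37.4, 36.4 and 38.2 CPM in DMSO and at 35.6, 36.1 and 37.0 CPM on ZW27941, and the groups overlapped. Its log2 fold change was −0.044 with a 95% interval of −0.11 to 0.018 (adjusted p = 0.296 by edgeR). FCGR1A has near-identical copies, FCGR1B and FCGR1CP, and its share of their joint counts was 76.9%, 76.5% and 77.3% in DMSO and 78.2%, 78.8% and 76.3% on ZW27941. The groups overlapped in this share (exact permutation p = 0.4, adjusted p = 0.4 over the 8 ratios). FCGR1B was at 4.95 ± 0.0829 and 4.62 ± 0.504 CPM and FCGR1CP at 6.25 ± 0.0615 and 5.75 ± 0.519 CPM (SD, n = 3 each) in DMSO and on ZW27941. With ZW27941 replicate 3 left out, the library with the most reads aligned to several places, both copies passed as lower (adjusted p = 0.0278 and 0.0158 by edgeR). The sum of FCGR1A and both copies had a log2 fold change of −0.059 (adjusted p = 0.149 by edgeR). In GENCODE v29 an exon of FCGR1A (chromosome 1, 149782671 to 149792518, plus strand) also overlaps exons of HIST2H2BF on the other strand, and the strand setting of the counting is not given in the sources used here.

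FCGR2A, the activating low-affinity IgG receptor, was at 70.6, 72.4 and 75.3 CPM in DMSO and at 73.6, 75.7 and 71.3 CPM on ZW27941. The groups overlapped, and the log2 fold change was 0.015 with a 95% interval of −0.046 to 0.076 (adjusted p = 0.746 by edgeR). FCGR2B, the inhibitory receptor of this family, and FCGR2C, a close paralog of both FCGR2A and FCGR2B, stood higher than FCGR2A. Per kilobase of exon, FCGR2A had 13.7 ± 0.445 CPM in DMSO, FCGR2B 43.1 ± 2.39 CPM and FCGR2C 46.3 ± 2.32 CPM (SD, n = 3 each). FCGR2B and FCGR2C did not differ in this beyond their spread. The split of reads among FCGR2A, FCGR2B and FCGR2C is uncertain. In GENCODE v29 the exons of FCGR2A and FCGR2C are also overlapped by a transcript, AL590385.2, on the same strand, and those of FCGR2B by an antisense gene.

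FCGR2C was called lower, from 157, 168 and 173 CPM in DMSO to 142, 147 and 129.7 CPM on ZW27941, with a log2 fold change of −0.25 (SE 0.037, adjusted p = 2.90e-05 by edgeR). FCGR2B was at 269, 299 and 293 CPM in DMSO and at 275, 277 and 270.1 CPM on ZW27941, a log2 fold change of −0.066 that did not pass (adjusted p = 0.115 by edgeR). Without DMSO replicate 1 FCGR2B passed, at −0.11 (adjusted p = 0.00628 by edgeR). FCGR2A made up 14.2%, 13.4% and 13.9% of the counts of FCGR2A, FCGR2B and FCGR2C together in DMSO and 15.0%, 15.1% and 15.1% on ZW27941 (exact permutation p = 0.1, adjusted p = 0.114). Summed as one feature these genes had a log2 fold change of −0.11 (adjusted p = 0.0103 by edgeR), a value set mostly by FCGR2B and FCGR2C. The log2 fold change of FCGR2A itself fell below 0 with upper quartile normalization (−0.0085) and without DMSO replicate 1 (−0.0055) or ZW27941 replicate 2 (−0.0070). The counts of FCGR2C to FCGR2B went from 0.578 ± 0.0151 to 0.509 ± 0.0263 (SD, n = 3 each, exact permutation p = 0.1, adjusted p = 0.114).

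Of the 13 tested genes of the Fc receptor family and its kinases, 2 (15.4%) were higher and 3 (23.1%) lower, beside 16.3% and 13.8% of all genes tested, with a median log2 fold change of −0.066. SYK, the kinase recruited by activated Fc receptors, rose from 150.03 ± 1.31 to 174 ± 2.35 CPM (SD, n = 3 each), a log2 fold change of 0.21 (adjusted p = 6.48e-07 by edgeR). FCGRT, the receptor that recycles IgG, had a log2 fold change of −0.11 (adjusted p = 0.00462 by edgeR). FCER1G, the signalling chain of FCGR1A, was low, at 3.45 ± 0.242 CPM in DMSO and 3.16 ± 0.414 CPM on ZW27941 (SD, n = 3 each), and did not pass (adjusted p = 0.316 by edgeR).

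CD14 was the receptor with the fewest counts and the only one called lower. It had 245, 232 and 208 counts in the DMSO libraries and 193, 168 and 206 counts on ZW27941, or 1.71, 1.54 and 1.36 CPM against 1.07, 1.17 and 1.29 CPM. The groups did not overlap, but the lowest DMSO and the highest ZW27941 library lay close together. The log2 fold change was −0.39 (SE 0.11, adjusted p = 0.0112 by edgeR), with a 95% interval of −0.62 to −0.16, and 7.70% of all genes tested had a value as low or lower. The call was lost without DMSO replicate 1 (−0.30, adjusted p = 0.0723 by edgeR) and without ZW27941 replicate 1 (−0.32, adjusted p = 0.0606), and over its alternatives the adjusted p ran from 0.00604 to 0.0723. Its gene (chromosome 5, 140631728 to 140633701, minus strand) overlaps no other gene in GENCODE v29.

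TLR4, which signals for CD14, was also low and moved the other way, from 3.08, 3.57 and 3.14 CPM in DMSO to 4.37, 4.57 and 4.12 CPM on ZW27941. Its log2 fold change was 0.41 (SE 0.077, adjusted p = 3.12e-04 by edgeR). Exons of TLR4 are overlapped on the same strand by those of AL160272.2 in GENCODE v29. The ratio of CD14 to TLR4 counts was 0.554, 0.430 and 0.433 in DMSO and 0.245, 0.255 and 0.313 on ZW27941 (exact permutation p = 0.1, adjusted p = 0.114). LY96, the third protein of this complex, was at 2.83 ± 0.256 and 3.01 ± 0.112 CPM (SD, n = 3 each) and did not pass (adjusted p = 0.488 by edgeR). Of 14 genes of the lipopolysaccharide receptor complex and its adaptors, 5 were higher and 1 lower, beside 16.3% and 13.8% of all genes tested, with a median log2 fold change of 0.094. LY86, the partner of CD180, had a log2 fold change of 0.17 and the adaptor MYD88 of 0.16 (adjusted p = 3.83e-05 and 2.06e-04 by edgeR).

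CD33 was at 65.6, 67.7 and 66.0 CPM in DMSO and at 66.6, 67.7 and 69.3 CPM on ZW27941, and the groups overlapped. Its log2 fold change was 0.031 with a 95% interval of −0.025 to 0.086 (adjusted p = 0.427 by edgeR), with an upper bound of 6.14% on a rise. Of 13 tested genes of its family of sialic acid receptors and the phosphatases they recruit, 6 were higher and 1, the phosphatase PTPN6, was lower, beside 16.3% and 13.8% of all genes tested. The median log2 fold change of these 13 was 0.21. DESeq2 called 4 of them higher and 1 lower, beside 3033 higher and 2698 lower of all genes. Among those called higher with edgeR, SIGLEC7, SIGLEC9, SIGLEC12 and SIGLEC15 were low, at means of 0.687, 1.00, 0.118 and 0.979 CPM in DMSO. SIGLEC10 rose from 11.7 ± 0.282 to 13.7 ± 0.273 CPM and SIGLEC6 from 20.1 ± 0.979 to 23.3 ± 0.875 CPM (SD, n = 3 each), with log2 fold changes of 0.23 and 0.21. SIGLEC9 had a log2 fold change of 0.46, at 1.00 ± 0.0463 CPM in DMSO and 1.38 ± 0.0330 CPM on ZW27941 (SD, n = 3 each).

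CD86 was at 15.8, 16.5 and 15.4 CPM in DMSO and at 18.8, 18.8 and 17.8 CPM on ZW27941. Every ZW27941 library was above every DMSO library by more than the spread of either group. The log2 fold change was 0.22 (SE 0.038, adjusted p = 1.55e-04 by edgeR), a rise of 16.2% with a 95% interval of 9.99% to 22.7%. The call held with each library left out. CD80, the other ligand of CD28 and CTLA4, was at 0.779 ± 0.0523 and 0.590 ± 0.124 CPM (SD, n = 3 each) and did not pass (adjusted p = 0.0653 by edgeR). Of 8 tested genes of this ligand family and its receptors, 1 was higher and 1 lower, beside 16.3% and 13.8% of all genes tested, with a median log2 fold change of 0.21. VSIR, an inhibitory ligand listed in the counts as C10orf54, rose from 72.4 ± 1.59 to 83.8 ± 1.47 CPM (SD, n = 3 each), and ICOSLG had a log2 fold change of −0.12. The call of ICOSLG was lost without DMSO replicate 2 or without ZW27941 replicate 2 (adjusted p = 0.0616 and 0.0959 by edgeR).

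**Figure D3:**
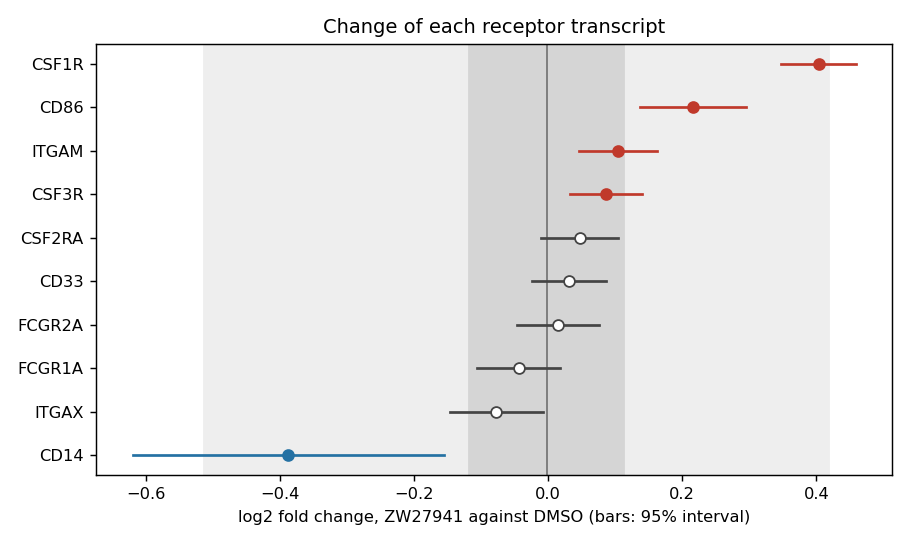
Log2 fold change of each receptor transcript, ZW27941 against DMSO (horizontal axis), with its 95% interval. Red marks receptors called higher, blue called lower and open circles not called. The dark grey band holds the middle 50% of all genes tested (−0.12 to 0.11) and the light band the middle 90% (−0.51 to 0.42). CSF1R at 0.40 and CD14 at −0.39 lie near the edges of the light band, and the 5 receptors not called have intervals close to 0.

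Levels of different genes can be compared only per length. Per kilobase of exon (GENCODE v29, all exons of a gene joined), ITGAM and CSF3R led in DMSO, at 27.2 ± 1.21 and 25.9 ± 0.736 CPM per kilobase (SD, n = 3 each), and did not differ beyond the range of their libraries. ITGAX followed at 18.2 ± 1.07, then FCGR2A at 13.7 ± 0.445, CSF2RA at 13.0 ± 0.282 and FCGR1A at 12.5 ± 0.288 CPM per kilobase (SD, n = 3 each), of which CSF2RA and FCGR1A overlapped. CD33 stood at 11.1 ± 0.181, CSF1R at 9.36 ± 0.1003, CD86 at 4.63 ± 0.167 and CD14 at 0.814 ± 0.0925 CPM per kilobase (SD, n = 3 each), each apart from its neighbours. On ZW27941 CSF1R was at 12.4 ± 0.253 CPM per kilobase (SD, n = 3), above CD33 at 11.4 ± 0.230, and overlapped FCGR1A at 12.1 ± 0.241. CSF1R moved from place 8 to place 6 of the 10, and the order of the others among themselves was the same. The joined exons include parts that this line may not transcribe, so these levels are approximate.

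The letters GGACT, the most common sequence context of m6A in mRNA, were counted in the longest protein-coding transcript of each gene in GENCODE v29 as a property that the choice of members did not use. CD14 had 7 in 1886 bases, or 3.71 per kilobase, which was at least the density of 99.6% of 12922 genes. ITGAX had 2.34 and CD86 1.85 per kilobase, while CSF1R had 1.00 and FCGR1A 0.459, against a median of 0.942 over all these genes. No methylation was measured in these libraries, and no relation to the fold changes was tested.

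The other myeloid surface markers were read as a wider set, of which 19 of 43 tested were higher and 7 lower, beside 16.3% and 13.8% of all genes tested, with a median log2 fold change of 0.13. ADGRE1, a macrophage surface receptor, rose from 2.17 ± 0.176 to 3.55 ± 0.203 CPM (SD, n = 3 each), a log2 fold change of 0.71 (adjusted p = 1.61e-06 by edgeR). SIRPA, the receptor of CD47 that restrains phagocytosis, rose from 152 ± 0.848 to 176 ± 1.49 CPM (SD, n = 3 each), a log2 fold change of 0.21. CD300E, an activating receptor of monocytes, fell from 15.1 ± 0.343 to 11.8 ± 0.293 CPM (SD, n = 3 each), a log2 fold change of −0.35. Over all the related lists, 34 of 111 genes tested were higher and 19 lower, beside 16.3% and 13.8% of all genes tested. These lists were chosen by hand with earlier results known.

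Of 8 tested surface markers of progenitors and leukemia cells, 2 were lower and 0 higher with edgeR, beside 13.8% and 16.3% of all genes tested. At an unadjusted p under 0.05, which at least 8064 of all 20399 genes met, the numbers were likewise 2 and 0. With DESeq2 they were again 2 and 0, beside 2698 lower and 3033 higher of all genes. CD38 had a log2 fold change of −0.11 and CD99 of −0.082 (adjusted p = 0.0168 and 0.0198 by edgeR). The call of CD38 was lost without DMSO replicate 1 or ZW27941 replicate 3, and that of CD99 without DMSO replicate 1, DMSO replicate 3, ZW27941 replicate 1 or ZW27941 replicate 2. CD34 and KIT, which mark early progenitors, were low, at 0.135 ± 0.0405 and 0.417 ± 0.111 CPM in DMSO (SD, n = 3 each).

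**Figure D4:**
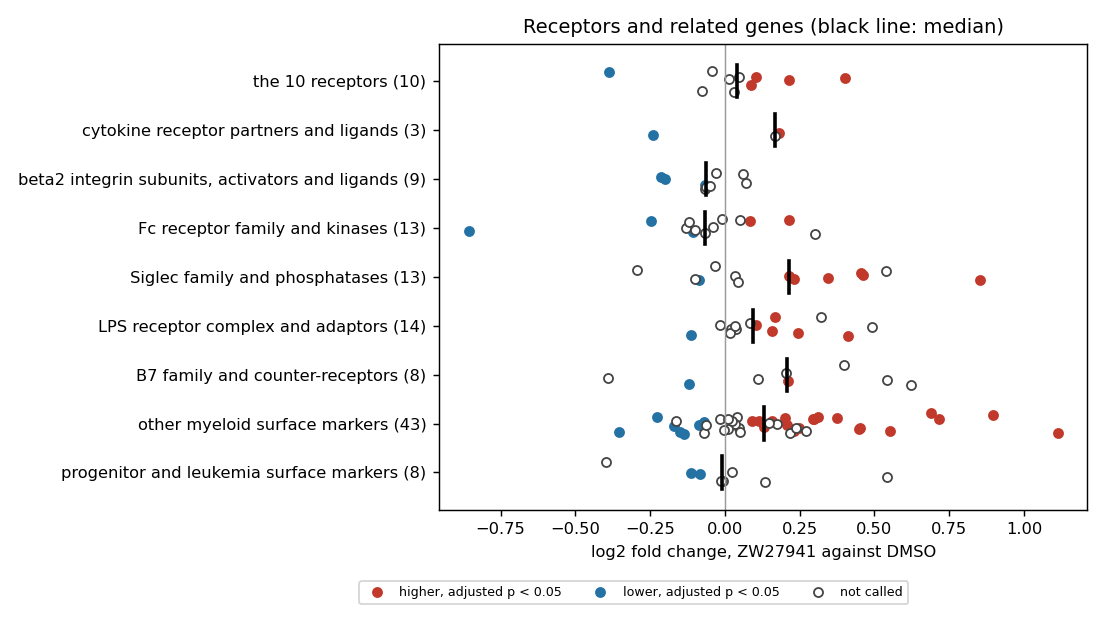
Log2 fold change (horizontal axis) of the 10 receptors and of the tested genes of each related list, with the number of genes in brackets. Red points were called higher, blue lower, and open points not called at an adjusted p of 0.05, and the black line is the median of the list. The medians run from −0.066 for the Fc receptor family to 0.21 for the sialic acid receptors, with 0.13 for the 43 other myeloid markers.

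**Figure D5:**
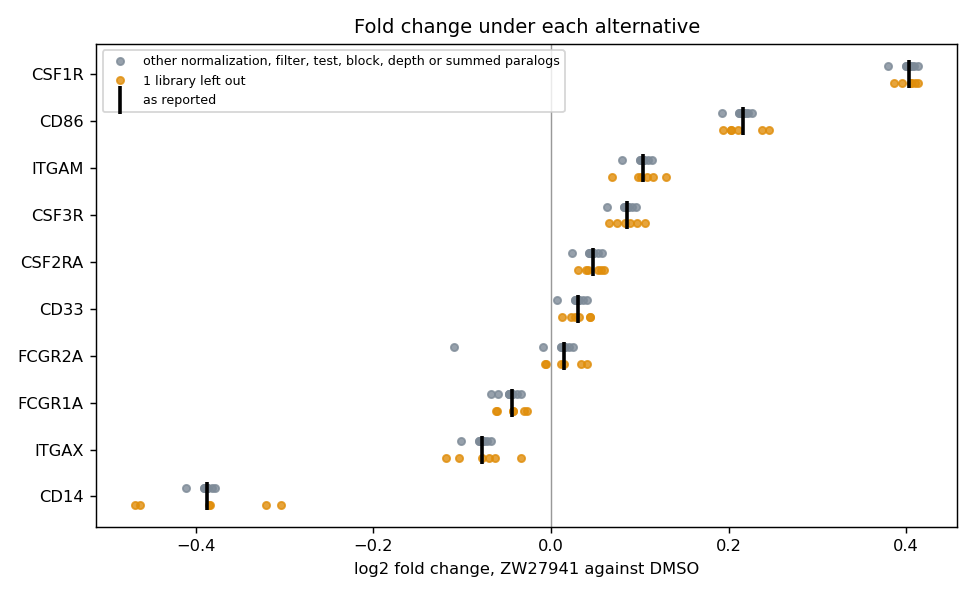
Log2 fold change of each receptor (horizontal axis) as reported (black bar), under other normalizations, filters, tests, the replicate block, thinning or summed paralogs (grey), and with 1 library left out at a time (orange). CSF1R stayed between 0.38 and 0.41 in all of them, CD14 ran from −0.47 to −0.30, and FCGR2A crossed 0.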

How the data were processed

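RNA of MOLM13 cells was sequenced in 6 libraries. The values deposited by the authors are raw counts of reads for each gene, not normalized. The submitters' processing notes name HISAT2, SAMtools 1.19.2, HTSeq 2.0.3 and hg38, while the annotation and strand setting are not given in the sources used here. The 5 tallies of reads given to no gene were left out. Counts were fitted in R 4.3.3 with edgeR 4.0.16 (TMM, filterByExpr, quasi-likelihood test, p adjusted by Benjamini-Hochberg over 20399 genes, threshold 0.05), with DESeq2 1.42.0 as an alternative. The 95% intervals used the same standard errors. On simulated counts of 20129 genes for ZW27941 against DMSO, the test recovered 44 of 50 genes changed by a fold of 1.2 and 49 of 50 changed by 1.5, with 7 false calls. The changed genes were drawn from those with a mean above 1 CPM, so recovery below that level was not tested. The simulated spread followed the trend with expression level and not each gene's own spread. Replicates of a group differed by 4.72 to 12.9 times the variance of counting noise, so no pair was averaged as 1 library. This does not show that they were separate cultures. Pairs with ZW27941 replicate 3 gave 8.76 and 12.9, and pairs without it 4.72 to 5.65. Among the members CD14 had the fewest counts, and CD80, CSF1, CD34, KIT, SIGLEC7, SIGLEC9, SIGLEC12 and SIGLEC15 were as shallow or shallower. Coordinates are GRCh38. The members and lists were chosen with earlier results of these data known. Genes named were the members, their paralogs and partners, the 3 lowest p-values among called genes of each list, and the 3 genes most correlated with the member of lowest p. CD80, CSF1, SPI1, CD34, KIT, PTPN6, ICAM4, SIGLEC7, SIGLEC12, SIGLEC15 and the markers of other cell types are named besides. Alternatives were other normalizations, filters, tests and thresholds, the replicate block, summed paralogs, thinning to the smallest total and each library left out.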

Additional observations from a re-analysis of the deposited data

How the results depend on the processing

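Over 19 alternatives, the 6149 genes called became 4005 at an adjusted p under 0.01 and 1754 with a fold change of at least 1.2. With a library left out they became 4836 to 6134. The 6134 were without ZW27941 replicate 3, against at most 5196 without any other library, and the reason was not tested. With upper quartile normalization 42.1% of the called genes were higher, against 54.2% with TMM. The 4 receptors called higher became 1 (CSF1R) with a fold change of at least 1.2, and 2 to 4 with a library left out, with 2 (CSF1R and CD86) without DMSO replicate 1. The 1 called lower became 2 with upper quartile normalization, with no filter on low counts and with paralogs summed (CD14 and the sum of FCGR2A, FCGR2B and FCGR2C, taken in place of FCGR2A), 0 at an adjusted p under 0.01, and 0 to 2 with a library left out, with 0 without ZW27941 replicate 1. The 34 related genes called higher became 16 with a fold change of at least 1.2, and 28 to 32 with a library left out. The 19 called lower became 10 at an adjusted p under 0.01, 2 with a fold change of at least 1.2, and 12 to 21 with a library left out, with 12 without DMSO replicate 2. The log2 fold change of FCGR2A changed sign to −0.0085 with upper quartile normalization, and reached −0.0070 to 0.041 with a library left out. The cause was not tested. With paralogs summed, the value of −0.11 is that of FCGR2A, FCGR2B and FCGR2C together and not of FCGR2A. The deviations of same-numbered libraries from their group means had r = −0.075, −0.030 and 0.13 for numbers 1, 2 and 3. ZW27941 replicate 1 correlated best with DMSO replicate 2 (r = 0.24), while the libraries numbered 3 correlated best with each other. With the replicate number as a block 6010 genes were called, and 4 receptors were higher and 1 lower as before, while ITGB2 was at an adjusted p of 0.0503 by edgeR. CD14 rests on 168 to 245 counts per library, and its call was kept when all libraries were thinned to the smallest total (adjusted p = 0.0109 by edgeR).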

Other observations

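Some transcripts named for other blood lineages were present in every library of this line. NCAM1 (CD56), which marks NK cells, was at 125 ± 1.69 CPM in DMSO and 139 ± 3.19 CPM on ZW27941 (SD, n = 3 each). NKG7, of cytotoxic granules, was at 59.4 ± 0.690 and 59.7 ± 2.36 CPM, and PAX5, the B cell transcription factor, at 25.8 ± 0.691 and 28.0 ± 0.580 CPM (SD, n = 3 each). The defining genes CD3E, CD3G, MS4A1 and KLRF1 were at or near 0 in the same libraries.

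SIGLEC5 had 0 counts in 5 of the 6 libraries and 1 count in the sixth, while SIGLEC14, which is nearly identical to it over part of its sequence, was at 3.35 ± 0.270 CPM in DMSO and 3.46 ± 0.119 CPM on ZW27941 (SD, n = 3 each). The way reads of this pair were divided was not tested.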
